A study of Mus musculus with 25 samples.

Results

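Salivary gland expression of C57BL/6.NOD-Aec1Aec2 mice was compared between the late ages, 16 and 20 weeks, and the young adult ages, 8 and 12 weeks. The comparison used 20 of the 25 arrays of the series: 10 late arrays (16 or 20 weeks) and 10 young arrays (8 or 12 weeks), chosen by the age in the labels alone, while the 5 arrays at 4 weeks, when the gland is still growing, were left out of the test. All mice were males of 1 strain, in which the Aec1 (Idd3) and Aec2 (Idd5) intervals of the diabetes-prone NOD mouse had been bred onto the C57BL/6 background. Every mouse, young or late, carried both intervals and none was treated. By the labels, 8 weeks precedes clinical signs, leukocytes enter the glands at 12 weeks, autoimmunity is first clinical at 16 weeks, and secretion begins to fail at 20 weeks. Since no C57BL/6 mice were among the arrays used here, normal aging and disease cannot be told apart. Each array held the RNA of 1 mouse, from 1 lobe of submandibular, sublingual and parotid gland together, from which the methods say that salivary lymph nodes had been taken out. All values are log2 expression values of Affymetrix probe sets averaged per gene, and a difference is the late mean less the young mean.

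A salivary gland is built of acini, which make the fluid and protein of saliva, and of ducts, which take back salt and, in male mice, store kallikreins and growth factors in granules. Myoepithelial cells wrap the acini and squeeze them, on a basement membrane of laminins and type IV collagen. In Sjögren's syndrome B and T cells gather in foci around the ducts, plasma cells and antigen presentation increase, interferon-induced genes are often raised, and flow of saliva is lost. In a whole gland, fewer cells of a type and less RNA per cell cannot be told apart.

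The defining markers of the gland were present in both pools. The list of granular duct kallikreins and growth factors had a mean log2 value of 12.79 to 12.92 in young and 12.56 to 12.90 in late mice, and the kallikrein gene Klk1b1 lay between 15.10 and 15.35 in young and between 14.15 and 15.33 in late mice. The parotid list spread from 7.57 to 10.24 in young and from 7.47 to 10.55 in late mice, so parotid genes varied among mice of both pools. Late arrays were less alike than young ones. The median SD of the 11696 expressed genes was 0.403 over late and 0.201 over young mice, and the late SD was the greater one in 88% of them. Mouse 3 at 20 weeks stood apart, with a median correlation of 0.897 to the others of its age against at least 0.974 for all other arrays compared. On its array the 3' control probe set of Gapdh was higher than the 5' one by 3.87, against 1.58 or less on every other array compared, and the part of this in its values was not tested. Without it the late median SD was 0.286. The 16-week mouse 2 had the next lowest correlation and, like mouse 3 at 20 weeks, a low upper quartile (5.20 and 5.19, against 5.69 to 5.94 in young mice). The median expressed gene was -0.11 in late against young mice and 0.016 once the arrays were quantile-normalized again, so differences of the deposited values are to be read against -0.11.

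Few genes separated late from young glands. Lower expression at 16 and 20 weeks was called for 12 of 18194 genes (0.0660%) by limma with Benjamini-Hochberg adjustment at 0.05, and higher expression for 0 (0%). At an unadjusted p under 0.05, 1996 genes (11.0%) were lower and 546 (3.00%) higher. These shares were 5.48% and 4.08% after quantile normalization, and 10.1% and 2.52% without mouse 3 at 20 weeks. The 12 genes that fell were Tnfrsf19, Pter, Yap1, Elovl6, Rassf10, Lrig1, P2ry14, Dennd2d, Arhgap24, Arid5b, Asns and Matn2, and the differences ran from 0.35 to 1.37 log2 units, over 2-fold for 3 of them. In all 12 both late age means lay below both young age means, a pattern held by 24.9% of all genes. Of the 12, 0 passed between 16 and 20 weeks, where 5 genes (0.0275%) passed, or between 8 and 12 weeks, where 1 did. The pooled test counts a difference between the ages of a pool as error, so it selects against such genes. Tnfrsf19 differed by 0.51 between 20 and 16 weeks (limma adjusted p = 0.322). All 12 genes kept a negative difference in each alternative fitted per gene.

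**Figure D1:**
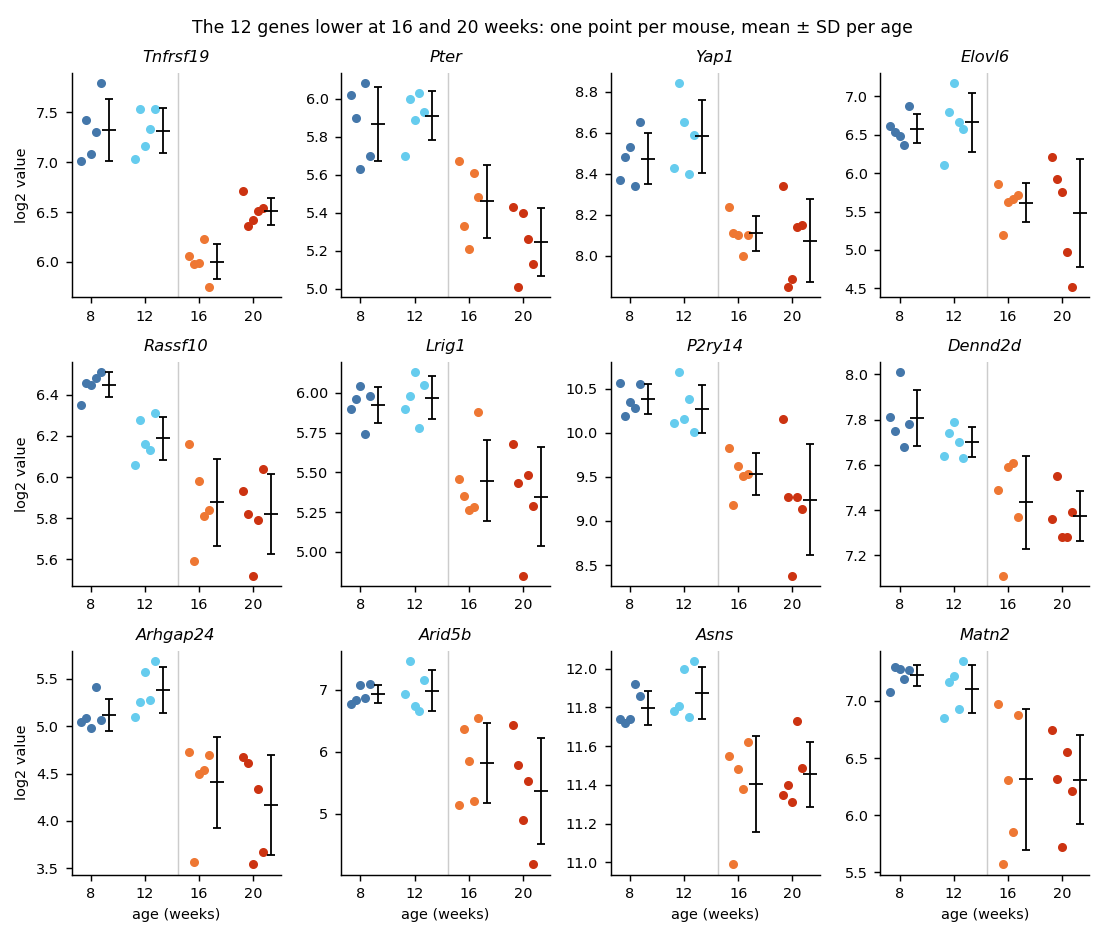
Log2 value of each of the 12 called genes in every mouse at 8, 12, 16 and 20 weeks (x axis, age in weeks; one point per mouse, black bars mean and SD of 5 mice; each panel has its own y range). The means at 16 and 20 weeks lie below those at 8 and 12 weeks in all panels, and the points do not overlap for Tnfrsf19, Dennd2d, Arhgap24 and Arid5b.

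The gene of smallest p was Tnfrsf19, a receptor of the tumor necrosis factor family that is also known as Troy and as a target of Wnt signaling. It lay between 7.01 and 7.79 in the 10 young mice (median 7.31) and between 5.75 and 6.71 in the 10 late mice (median 6.29), so the pools did not overlap. The means were 7.32 ± 0.31 at 8 weeks, 7.31 ± 0.23 at 12 weeks, 6.00 ± 0.17 at 16 weeks and 6.51 ± 0.13 at 20 weeks (SD, n = 5 each), after 8.06 at 4 weeks. The late glands were 2.09-fold lower (difference -1.06, SE 0.12, limma adjusted p = 0.000763), and the call held without any 1 of the 20 arrays. The value rests on 1 probe set, and with all its probe sets averaged the difference was -0.32 (limma adjusted p = 0.0195).

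Yap1, the transcriptional coactivator restrained by the Hippo pathway, had 8.34 to 8.84 in young mice (median 8.51) and 7.85 to 8.34 in late mice (median 8.11), with 9 of 10 late mice below the lowest young mouse (difference -0.44, SE 0.068, limma adjusted p = 0.0205). After quantile normalization its difference was -0.15 (limma adjusted p = 0.68), and with all its probe sets averaged -0.31 (adjusted p = 0.0888). Lrig1, which dampens signaling of the epidermal growth factor receptor family and marks epithelial stem cells in several organs, had 5.74 to 6.13 in young (median 5.97) and 4.85 to 5.88 in late mice (median 5.39; difference -0.55, SE 0.092, adjusted p = 0.0267). Of its 3 probe sets 2 had the same sign. Rassf10, of the Ras association domain family, fell by 0.47 (SE 0.078, adjusted p = 0.0267), with 9 late mice below all young ones.

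Arid5b, a DNA-binding cofactor with a role in fat metabolism, had the greatest difference of the 12. It lay between 6.65 and 7.46 in young mice (median 6.90) and between 4.18 and 6.54 in late mice (median 5.66). All late mice were below all young mice, yet they were widely spread, from mouse 5 at 20 weeks as the lowest to mouse 5 at 16 weeks as the highest. The late glands were 2.58-fold lower (difference -1.37, SE 0.24, limma adjusted p = 0.033). This too is the value of 1 probe set, and the mean of all probe sets of Arid5b gave -0.23 (adjusted p = 0.0774). Elovl6, the elongase that turns palmitate into stearate, had 6.11 to 7.17 in young (median 6.59) and 4.52 to 6.21 in late mice (median 5.69), 2.11-fold lower (difference -1.08, SE 0.18, adjusted p = 0.0267). Only mouse 1 at 20 weeks reached the young range.

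P2ry14, the receptor of UDP-glucose, was 8.15 on average at 4 weeks, 10.39 ± 0.17 at 8 weeks and 10.27 ± 0.27 at 12 weeks, then 9.54 ± 0.23 at 16 weeks and 9.25 ± 0.63 at 20 weeks (SD, n = 5 each). The young mice lay between 10.01 and 10.69 and the late ones between 8.38 and 10.16, of which mouse 1 at 20 weeks was the sole one within the young range (difference -0.94, SE 0.16, limma adjusted p = 0.0304). After quantile normalization 5 genes were called lower, and of the 12 only P2ry14 and Matn2 were among them.

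Arhgap24 and Dennd2d fell without overlap of the pools. Arhgap24, a GTPase-activating protein, was 4.98 to 5.69 in young (median 5.18) and 3.54 to 4.73 in late mice (median 4.52; difference -0.97, SE 0.17, limma adjusted p = 0.0304), and its difference was -0.46 (adjusted p = 0.0195) with all its probe sets averaged. Dennd2d, an exchange factor of Rab GTPases, was 7.63 to 8.01 in young and 7.11 to 7.61 in late mice (difference -0.35, SE 0.061, adjusted p = 0.0304), and after quantile normalization its difference was -0.084 (adjusted p = 0.772). Absence of overlap was seen for 10 genes lower in late mice (0.0550% of all) and 1 higher (0.00550%), and 4 of the 10 passed the test. Pter, a phosphotriesterase-related enzyme, fell by 0.53 (SE 0.081, adjusted p = 0.0205) from a young median of 5.91 to a late one of 5.37. With all probe sets of Pter averaged it had -0.21 (adjusted p = 0.15). Matn2, a matrilin that links matrix fibers around epithelia and nerves, fell by 0.85 (SE 0.16, adjusted p = 0.0464), and passed in 5 of the 20 fits without 1 array.

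**Figure D2:**
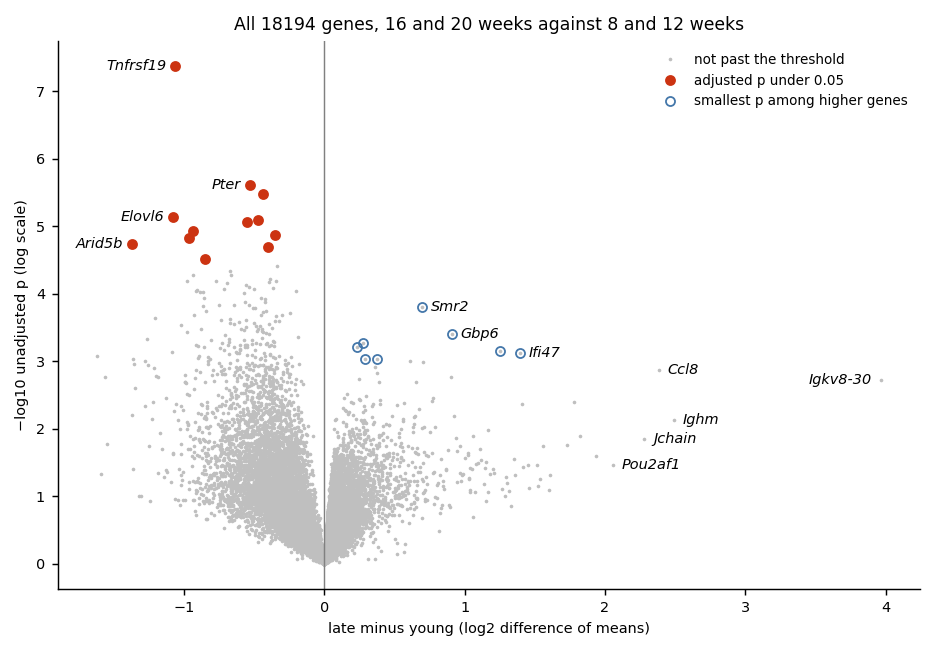
Difference of late and young means (x axis, log2) against minus log10 of the unadjusted limma p (y axis) for 18194 genes, one point per gene. The 12 called genes (red) are all on the lower side at differences of -0.35 to -1.37, while the largest differences on the higher side, such as Igkv8-30, Ighm and Ccl8, have larger p.

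The count of called genes moved with single mice. It was 1 without mouse 5 at 12 weeks, 2 without mouse 5 at 8 weeks, 3 without mouse 2 and 4 without mouse 3 at 12 weeks, 5 without mouse 4 at 8 or at 12 weeks, 4 without mouse 4 at 16 or at 20 weeks, and 7 without mouse 3 at 16 or mouse 5 at 20 weeks. It rose to 48 without mouse 1 at 20 weeks, 56 without mouse 5 at 16 weeks, 76 without mouse 3 at 20 weeks and 153 without mouse 1 at 16 weeks. Without mouse 3 at 20 weeks, and also without this mouse and mouse 2 at 16 weeks, all 12 genes remained called. With array weights, which count arrays less the more they vary from their pool, 396 genes (2.18%) were lower and 79 (0.434%) higher, the 12 among them. With the Gapdh 3' minus 5' value as a covariate 736 genes (4.05%) were lower and 56 (0.308%) higher, again with all 12.

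Asns, asparagine synthetase, fell by 0.40 (SE 0.072, limma adjusted p = 0.0338). It lay between 11.72 and 12.04 in young mice (median 11.79) and between 10.99 and 11.73 in late mice (median 11.44), where mouse 4 at 20 weeks alone reached the young range. Asns is a classic target of ATF4, the factor that cells raise when amino acids are short or protein folding fails, through an amino acid response element in its promoter. A matching stretch, TGATGNAAN searched on both strands, was found in the RefSeq promoters (250 bases before to 50 after the start, GRCm38.p6) of 10 of 30 listed genes of the amino acid stress response (33.3%) against 3.95% of 32851 promoters. The first share counts genes and the second promoters, of which a gene can have several. Since the list holds known targets such as Asns, the excess is no independent evidence. The promoters of Asns (chr6:7693160-7693459, minus strand) and of Gars, the glycyl-tRNA synthetase gene (chr6:55037751-55038050, plus strand), are printed since both hold the stretch (capitals), the one as written and the other on the opposite strand, with its first base at -23 and -31 from the start site.
Asns: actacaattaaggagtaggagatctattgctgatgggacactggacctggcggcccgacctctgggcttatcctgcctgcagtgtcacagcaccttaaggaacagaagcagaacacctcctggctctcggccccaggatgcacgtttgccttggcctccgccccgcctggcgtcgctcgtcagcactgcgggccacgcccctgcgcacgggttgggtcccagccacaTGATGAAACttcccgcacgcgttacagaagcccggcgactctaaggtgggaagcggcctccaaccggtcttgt
Gars: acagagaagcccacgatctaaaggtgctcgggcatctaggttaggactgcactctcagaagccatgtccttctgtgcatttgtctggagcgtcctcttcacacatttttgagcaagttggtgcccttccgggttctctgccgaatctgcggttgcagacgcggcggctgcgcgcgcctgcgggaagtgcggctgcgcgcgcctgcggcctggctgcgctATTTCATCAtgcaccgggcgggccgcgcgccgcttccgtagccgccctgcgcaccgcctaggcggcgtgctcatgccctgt

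In the amino acid stress response list most differences were negative by its median. Of its 35 measured members 1, Asns, passed, and 12 (34.3%) were lower at an unadjusted p under 0.05, against 11.0% of all genes, with 1 higher. Its expressed members had a median difference of -0.35, beside -0.11 for all expressed genes. Cth, which makes cysteine from cystathionine, came next to the threshold, with 4.23 to 5.95 in young and 3.68 to 4.56 in late mice (difference -0.88, SE 0.18, limma adjusted p = 0.0534). Shmt2, the mitochondrial serine hydroxymethyltransferase, had a difference of -0.39 (adjusted p = 0.121). Gars, picked for its promoter after its values were seen, was 9.49 to 10.18 in young and 7.79 to 9.61 in late mice (difference -0.63, adjusted p = 0.153). With array weights Asns, Cth and Gars passed. The list's median shrank to -0.11 after quantile normalization (0.016 for all expressed genes). In that fit 9 of the 35 were lower and 3 higher at an unadjusted p under 0.05, against 5.48% and 4.08% of all genes. The median over the 10 members with the promoter stretch was -0.38 and over those without it -0.24, a description without a test.

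The lists of fatty acid oxidation and of fatty acid and triglyceride synthesis had negative medians. Of 29 genes of fatty acid oxidation 0 passed, and 8 (27.6%) were lower at an unadjusted p under 0.05 against 11.0% of all genes, none higher, with a median of -0.45 over the expressed members (-0.27 after quantile normalization, -0.26 without mouse 3 at 20 weeks). Cpt1a, which brings fatty acids into mitochondria, lay between 8.88 and 9.45 in young and between 6.67 and 8.98 in late mice, 8 of which were below the lowest young mouse (difference -0.70, limma adjusted p = 0.179). Etfdh and Acad11 had differences of -0.74 (adjusted p = 0.383) and -0.65 (adjusted p = 0.255). Of 25 genes of fatty acid and triglyceride synthesis, Elovl6 fell and 6 (24%) were lower at an unadjusted p under 0.05 against 11.0% of all genes. After quantile normalization only 1 was lower, against 5.48% of all genes. The median over the expressed members was -0.37, or -0.11 after quantile normalization. Srebf1, the factor that drives this synthesis, had a difference of -0.38 (adjusted p = 0.247) and Gpam, which starts triglyceride synthesis, -0.39 (adjusted p = 0.306). The median of sterol synthesis was -0.11, as over all expressed genes, and 0.12 after quantile normalization.

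Among genes of the matrix 1, Matn2, fell. Of 36 collagen chains 0 passed, 12 (33.3%) were lower at an unadjusted p under 0.05 against 11.0% of all genes and none higher, with a median over the expressed chains of -0.18 (-0.047 after quantile normalization). After quantile normalization 9 chains were lower at that p, against 5.48% of all genes, and none higher. Col1a1, a chain of type I collagen, had its highest mean before 8 weeks, with 8.89 at 4 weeks, 7.00 ± 0.29 at 8 weeks, 6.34 ± 0.50 at 12 weeks, 5.49 ± 0.49 at 16 weeks and 6.04 ± 0.37 at 20 weeks (SD, n = 5). The late difference was -0.90 (SE 0.22, limma adjusted p = 0.0994), and for its partner Col1a2 -0.99 (adjusted p = 0.135). Col4a2, of basement membranes, lay between 8.15 and 9.01 in young and between 4.92 and 8.37 in late mice, the lowest being mouse 3 at 20 weeks (difference -1.21, adjusted p = 0.121). Without that mouse Col4a2 had -0.95 (limma adjusted p = 0.0498), the 1 fit of 20 without 1 array in which it passed. Of 44 basement membrane and matrix glycoprotein genes Matn2 fell, and the laminin chains Lama3 and Lamc1 had -1.35 (adjusted p = 0.121) and -0.73 (adjusted p = 0.0994). In the study's own list of 16 adhesion genes Matn2 fell too, and Sdc4, a syndecan that anchors cells to matrix, had -1.21 (adjusted p = 0.0764). The study chose that list on these samples, so it is not independent evidence of a direction.

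**Figure D3:**
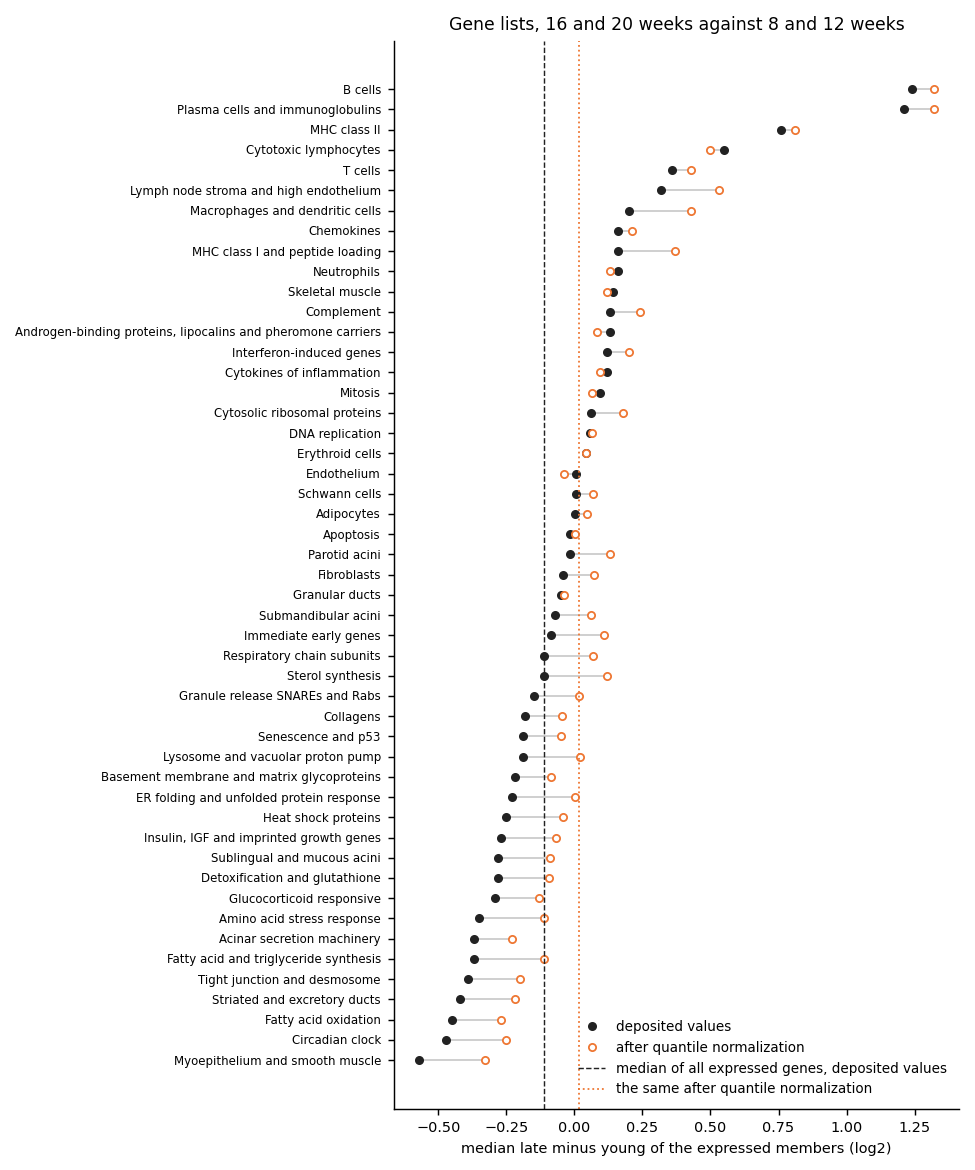
Median difference of late and young (x axis, log2) over the expressed members of each gene list (y axis), from the deposited values (black) and after quantile normalization (orange), with the median of all expressed genes under each as vertical lines. B cell, plasma cell and class II lists lie farthest to the right (1.24, 1.21 and 0.76) and myoepithelial, clock and fatty acid oxidation lists farthest to the left (-0.57, -0.47 and -0.45).

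Of the myoepithelial and duct genes 0 passed, and mouse 3 at 20 weeks had the lowest mean of both lists. The myoepithelial and smooth muscle list had a mean of 7.54 to 7.83 in young and 5.47 to 7.85 in late mice, 7 of which were below the lowest young mouse. The median of its 16 members was -0.57 where expressed, or -0.32 without mouse 3 at 20 weeks and -0.11 with array weights. Smtn, smoothelin, had -1.22 (limma adjusted p = 0.215), Actg2, a smooth muscle actin, -0.88 (adjusted p = 0.201), and Myh11, smooth muscle myosin, -0.89 (adjusted p = 0.392) but 0.097 with array weights. Of 22 striated and excretory duct genes 7 (31.8%) were lower at an unadjusted p under 0.05 against 11.0% of all genes. Without mouse 3 at 20 weeks 7 were lower, against 10.1% of all genes, and after quantile normalization 4, against 5.48%. The mean of the duct list was 7.71 to 7.97 in young and 6.24 to 7.92 in late mice, 7 of which again lay below all young ones. Krt19, a duct keratin, had -1.01 (adjusted p = 0.194). For Ascl3, of duct progenitors and ionocytes, and Scnn1a, a subunit of the sodium channel ENaC, the differences of -0.97 and -0.73 (adjusted p = 0.392 and 0.355) were -0.48 and -0.41 without mouse 3 at 20 weeks. Of 33 tight junction and desmosome genes 0 passed and 8 (24.2%) were lower at an unadjusted p under 0.05 against 11.0% of all genes. After quantile normalization 5 were lower, against 5.48% of all genes. Jup, plakoglobin, had -0.76 (adjusted p = 0.392), or -0.28 without mouse 3 at 20 weeks, and Itgb4, of hemidesmosomes, -0.68 (adjusted p = 0.274).

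The machinery of fluid secretion did not pass in any of its 28 measured genes, with 8 (28.6%) lower at an unadjusted p under 0.05 against 11.0% of all genes. That count was 3 after quantile normalization, against 5.48% of all genes, and 4 without mouse 3 at 20 weeks, against 10.1%. The median over expressed members went from -0.37 to -0.040 with array weights. Ano1, the chloride channel of acini, lay between 9.01 and 10.31 in young and 7.97 and 10.26 in late mice (difference -0.62, limma adjusted p = 0.317). Atp2a2, the calcium pump of the endoplasmic reticulum, had -0.60 (adjusted p = 0.329) and Slc12a2, the carrier that loads acini with chloride, -0.58 (adjusted p = 0.392), which turned to 0.31 with array weights. In the study's list of 9 muscarinic pathway genes, chosen on these samples, 0 passed, and the calcium release channel gene Itpr2 had -0.49 (adjusted p = 0.349). The medians over expressed members were -0.23 for 41 genes of protein folding in the endoplasmic reticulum, -0.11 for 58 respiratory chain subunits and -0.073 for 11 submandibular acinar products, and after quantile normalization each changed sign, to 0.00067, 0.070 and 0.061. The median of all expressed genes changed sign too, from -0.11 to 0.016. Pdia4, a folding enzyme, had -1.22 (adjusted p = 0.181). Among 33 apoptosis genes Tnfrsf19 fell, and the inducers of cell death Bcl2l11 and Bmf lay next to the threshold, with -0.69 (SE 0.14, adjusted p = 0.0534) and -0.74 (SE 0.16, adjusted p = 0.0785). Both passed with array weights. In the apoptosis list 15 differences were negative and 18 positive, and the median over expressed members was -0.016. At an unadjusted p under 0.05, 5 of its genes (15.2%) were lower and 2 (6.06%) higher, against 11.0% and 3.00% of all genes. Egr1, Dusp4 and Ier3, early genes that respond within minutes to stimulation or handling, had -0.92, -0.89 and -0.89 (adjusted p = 0.219, 0.263 and 0.114). They had the largest differences in a list of 37 such genes, of which 18 were negative and 19 positive. The median over its expressed members was -0.086, or 0.11 after quantile normalization.

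The highest values on the other side were those of B cells and immunoglobulins, but in some mice only. Of 18 B cell genes 0 passed, 5 (27.8%) were higher at an unadjusted p under 0.05 against 3.00% of all genes, and 1 was lower. Without mouse 3 at 20 weeks 2 were higher, against 2.52% of all genes. The mean of the list lay between 3.12 and 4.41 in young mice (median 3.19) and between 3.13 and 6.74 in late mice (median 3.38). Mice 3 and 4 at 16 weeks had 6.74 and 6.66, mice 3 and 2 at 20 weeks had 4.62 and 4.10, and the other 6 late mice had 3.13 to 3.48. Among young mice, mouse 4 at 8 weeks stood at 4.41 and the rest at 3.29 or less. The arrays of mice 3 and 4 at 16 weeks were also close in Igkv8-30 (13.08 and 13.07) and the parotid list (10.03 and 10.01). Their Gapdh 3' minus 5' values were 1.08 and 1.06. They differed more in Mki67 (4.04 and 5.36) and Cfb (5.23 and 6.27). The labels give them as separate mice, and whether these arrays are independent was not tested. Of 16 plasma cell and immunoglobulin genes 0 passed. At an unadjusted p under 0.05, 7 (43.8%) were higher and 2 (12.5%) lower, against 3.00% and 11.0% of all genes. In that list 12 differences were positive and 4 negative, the lowest -0.74. Its member Ighm, the heavy chain of IgM, ran from 2.96 to 5.88 in young (median 3.14) and from 3.20 to 9.60 in late mice (median 4.85), with 4 late mice above all young ones (difference 2.49, SE 0.83, limma adjusted p = 0.215). Jchain, which joins IgA and IgM chains, had 2.28 (SE 0.84, adjusted p = 0.262) and Pou2af1, a coactivator of B cells, 2.05 (SE 0.91, adjusted p = 0.328). Cd79b of the B cell receptor and Bank1 had 1.52 and 1.52 (adjusted p = 0.39 and 0.325), and Ms4a1 (CD20), picked after its values were seen, had 1.45 (adjusted p = 0.328). At 4 weeks, outside the test, Cd79b, Bank1 and Ms4a1 had means of 4.34, 4.30 and 5.18, above those at 8 and 12 weeks. Their means at 20 weeks were 4.17, 4.35 and 5.49. The largest difference of all genes was that of the kappa light chain segment Igkv8-30, picked after its values were seen: 2.33 to 9.31 in young and 5.83 to 13.08 in late mice (difference 3.97, SE 1.10, adjusted p = 0.134). Its probe set may also read related segments.

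Of 19 T cell genes 0 passed and 8 (42.1%) were higher at an unadjusted p under 0.05 against 3.00% of all genes. That count was 3 after quantile normalization, against 4.08% of all genes, and 4 to 11 when 1 mouse was left out. The mean of the list was 2.79 to 3.30 in young and 2.81 to 4.10 in late mice, highest in mice 3 and 4 at 16 weeks. Cd3d, of the T cell receptor complex, was near background in most mice, with a median of 2.12 in young and 2.17 in late mice and a highest value of 6.48 (adjusted p = 0.392). Nkg7 and Gzma, of cytotoxic granules, had 0.62 and 0.55 (adjusted p = 0.392 and 0.27). Gzma was highest in mice 2 and 5 at 20 weeks (5.14 and 4.97), Nkg7 in mice 3 and 4 at 16 weeks (5.36 and 5.17). The list of lymph node stroma genes had 4.35 to 5.05 in young mice, highest in mouse 4 at 8 weeks, and 4.36 to 5.60 in late mice, highest in mice 3 and 4 at 16 weeks. Glycam1, of high endothelial venules, had highest values of 6.84 in young and 7.91 in late mice, Madcam1, a vascular addressin, of 3.05 and 5.09 (mouse 3 at 20 weeks), and Cxcl13, which draws B cells into follicles, of 4.91 and 7.86. At 4 weeks, outside the test, Glycam1 had a mean of 7.04, against 5.43 at 16 and 4.90 at 20 weeks. Cxcl13 had 3.92 at 4 weeks, against 4.66 and 3.74, so high values were not confined to late ages. Remaining node tissue and lymphoid foci of the gland carry the same genes, and their part in these values was not tested.

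**Figure D4:**
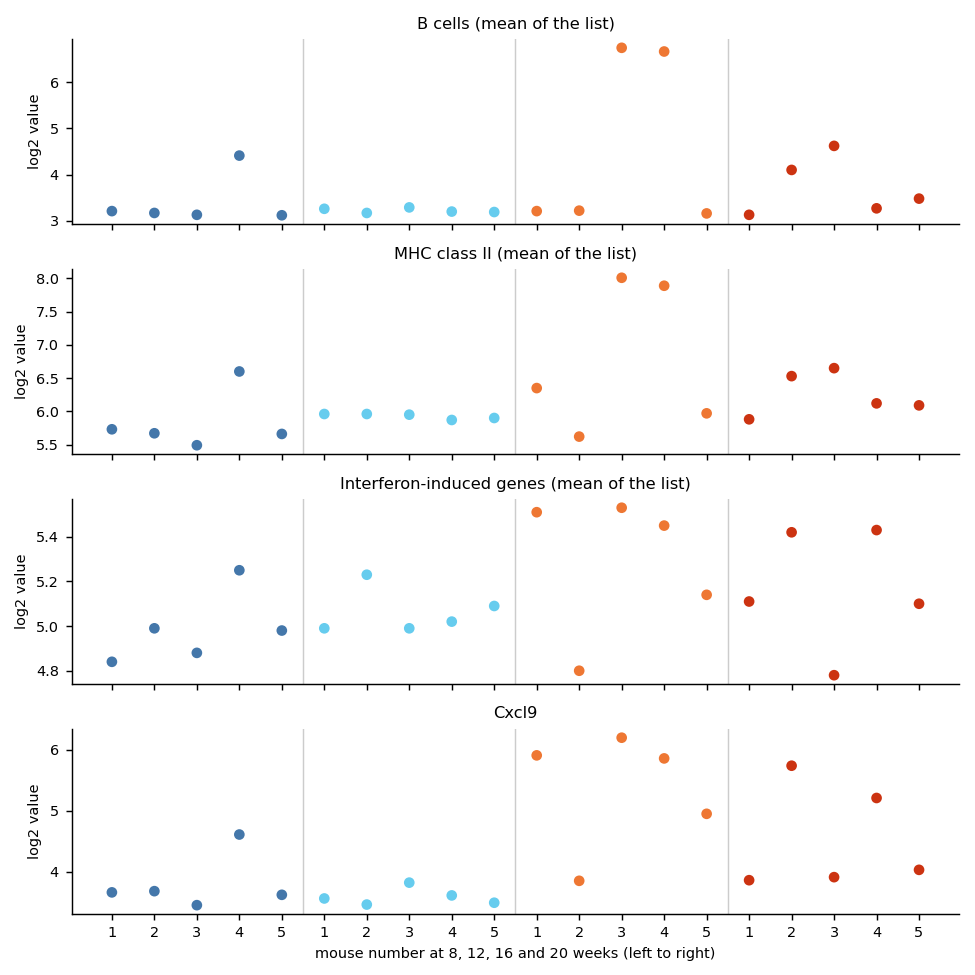
Mean log2 value of the B cell, class II and interferon-induced lists and log2 value of Cxcl9 (y axes) in each mouse (x axis, mouse number at 8, 12, 16 and 20 weeks from left to right, one point per mouse). B cell and class II lists peak in mice 3 and 4 at 16 weeks, while Cxcl9 is also high in mouse 1 at 16 weeks and mouse 4 at 20 weeks (5.91 and 5.21), whose B cell lists are at 3.21 and 3.27.

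Some genes of antigen presentation and interferon response were above the young range also in late mice with a low B cell list. Of 11 class II genes 0 passed and 5 (45.5%) were higher at an unadjusted p under 0.05 against 3.00% of all genes, none lower. H2-Ab1 was 5.91 to 7.59 in young and 6.05 to 9.16 in late mice, with 6 late mice above all young ones (difference 0.94, SE 0.35, limma adjusted p = 0.26). H2-Eb1 had 0.75 (adjusted p = 0.251), while H2-Ob and H2-Oa, of B cells, had 1.54 and 0.90 (adjusted p = 0.366 and 0.392). Of 17 class I and peptide loading genes 5 (29.4%) were higher at an unadjusted p under 0.05 against 3.00% of all genes. Among the 5 were the immunoproteasome subunits Psmb9 and Psmb8, with 0.93 and 0.48 (adjusted p = 0.205 and 0.265), and H2-M3 with 0.63 (adjusted p = 0.236). After quantile normalization 8 were higher, against 4.08% of all genes.

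Of 44 interferon-induced genes 0 passed, 11 (25%) were higher at an unadjusted p under 0.05 against 3.00% of all genes, and 1 was lower. Gbp6, a guanylate-binding protein, lay between 3.36 and 4.15 in young mice (median 3.47) and between 3.77 and 5.42 in late mice (median 4.44; difference 0.91, SE 0.21, limma adjusted p = 0.0895). Ifi47, an interferon-inducible GTPase, had 4.37 to 5.15 in young and 4.96 to 7.98 in late mice (difference 1.39, SE 0.35, adjusted p = 0.11). Cxcl9, the interferon gamma-induced chemokine of T cells, had 3.45 to 4.61 in young (median 3.62) and 3.85 to 6.20 in late mice (median 5.08; difference 1.25, SE 0.31, adjusted p = 0.107). With the B cell list of each mouse as a covariate, chosen after seeing the data, all these differences shrank. Gbp6 went from 0.91 to 0.70, Cxcl9 from 1.25 to 0.92, Ifi47 from 1.39 to 0.78 and Gbp3 from 0.46 to 0.23. Psmb9 went from 0.93 to 0.57, H2-Ab1 from 0.94 to 0.58 and Ighm from 2.49 to 1.19. In that fit the limma adjusted p was 0.295 for Gbp6, 0.337 for Cxcl9, 0.0867 for Ifi47, 0.508 for Gbp3 and 0.476 for Psmb9, H2-Ab1 and Ighm. With array weights 9 of the 44 passed, all higher, against 0.434% of all genes. They were Ifi47, Oas1a, Stat2, Gbp2, Gbp3, Gbp6, Irgm2, Iigp1 and Cxcl9. Ifngr1, the ligand-binding chain of the receptor of interferon gamma, was the 1 gene of all (0.00550%) with every late mouse above every young one, at 3.30 to 3.49 in young and 3.49 to 4.04 in late mice (difference 0.23, SE 0.058, adjusted p = 0.0997). It rests on 1 probe set, close to the cut of 3.266 for expressed probe sets. Array medians were 3.17 to 3.26 in young and 3.19 to 3.64 in late mice. After quantile normalization the difference of Ifngr1 was 0.18 (limma adjusted p = 0.412).

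The element through which interferon acts on many of these genes, a pair of GAAA letters with 2 free bases between them, on either strand, was found in the RefSeq promoters of 18 of the 31 list members in the table (58.1%), against 3.44% of all 32851. Here too genes are set beside promoters, and a list of genes that interferon induces is no independent evidence for its element. The promoters of Oas1a, a sensor of double-stranded RNA (chr5:120907476-120907775, minus strand), and of Gbp3 (chr3:142559794-142560093, plus strand, one of its listed starts) are shown because each holds the stretch in overlapping matches (capitals), as written in Oas1a and on the opposite strand in Gbp3. Oas1a was 3.35 to 3.84 in young and 3.67 to 5.31 in late mice (difference 0.70, SE 0.18, limma adjusted p = 0.121). Gbp3 was 5.24 to 6.23 in young and 4.74 to 6.98 in late mice (difference 0.46, SE 0.24, adjusted p = 0.382). Both were picked after their values were seen.
Oas1a: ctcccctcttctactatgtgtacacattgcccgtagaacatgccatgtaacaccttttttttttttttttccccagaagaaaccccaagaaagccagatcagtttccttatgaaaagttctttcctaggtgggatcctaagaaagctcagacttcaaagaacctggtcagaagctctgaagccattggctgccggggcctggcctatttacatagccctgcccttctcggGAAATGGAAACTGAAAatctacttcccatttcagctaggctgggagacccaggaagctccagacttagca
Gbp3: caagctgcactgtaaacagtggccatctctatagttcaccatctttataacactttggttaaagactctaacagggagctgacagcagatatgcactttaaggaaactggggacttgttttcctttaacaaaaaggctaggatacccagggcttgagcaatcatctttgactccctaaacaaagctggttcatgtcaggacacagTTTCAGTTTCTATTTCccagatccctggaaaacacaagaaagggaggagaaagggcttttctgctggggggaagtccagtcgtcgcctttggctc

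Of 31 chemokine genes 0 passed and 7 (22.6%) were higher at an unadjusted p under 0.05 against 3.00% of all genes, none lower. Ccl8, which draws monocytes, ran from 3.55 to 6.92 in young mice (median 4.02) and from 3.52 to 8.88 in late mice (median 7.06; difference 2.38, SE 0.64, limma adjusted p = 0.122). The one young mouse above 4.49 was mouse 4 at 8 weeks, and mouse 2 at 16 weeks had the lowest value of all. Ccl5, of T cells, had 1.41 (adjusted p = 0.185). Of 30 macrophage and dendritic cell genes 10 (33.3%) were higher at that p against the same 3.00%, and 1 lower. Laptm5, a lysosomal protein of blood cells, had 0.79 (adjusted p = 0.236), and the lysozymes Lyz1 and Lyz2 0.95 and 0.72 (adjusted p = 0.293 and 0.392). Of 18 complement genes 4 (22.2%) were higher, again against 3.00%, and the factor B gene Cfb had 0.54 (adjusted p = 0.277). Mki67, of dividing cells, had left its 4-week mean of 6.39 behind in both pools (2.96 to 3.76 in young, 3.09 to 5.36 in late mice), with mouse 4 at 16 weeks the highest.

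The other genes of smallest p on the higher side were not immune genes. Smr2, an androgen-regulated secretory product of the submandibular gland, was 3.20 to 4.23 in young (median 3.67) and 3.80 to 5.06 in late mice (median 4.42), with 7 late mice above all young ones (difference 0.70, SE 0.15, limma adjusted p = 0.0651). At 4 weeks, outside the test, Smr2 had a mean of 4.47, against 3.63, 3.74, 4.25 and 4.51 at 8, 12, 16 and 20 weeks. It passed when only the 11696 expressed genes were tested, as the 1 higher gene (0.00855%) beside 38 lower ones (0.325%), and it passed with array weights. Rpain, a partner of replication protein A, Zbed4, a zinc finger protein, and Adamts5, a protease of aggrecan, had 0.27, 0.37 and 0.29 (adjusted p = 0.0994, 0.117 and 0.117). Smr2, Rpain, Zbed4 and Adamts5 had low values, with young medians of 3.67, 3.68, 3.46 and 3.90 beside the cut of 3.266. After quantile normalization their limma adjusted p was 0.147, 0.233, 0.251 and 0.164.

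Of the clock genes Dbp differed within the late pool. The molecular clock of each tissue runs through the day, with Dbp and Nr1d1 among its output and feedback genes, and the hour at which glands were taken is not given in the sources used here. Of 24 clock genes 0 passed, 7 (29.2%) were lower and 2 (8.33%) higher at an unadjusted p under 0.05, against 11.0% and 3.00% of all genes. Nr1d1, a repressor that feeds back on the clock, was 7.65 ± 0.50 at 8 weeks, 8.26 ± 0.15 at 12 weeks, 7.00 ± 0.53 at 16 weeks and 5.67 ± 1.47 at 20 weeks (SD, n = 5), with a late difference of -1.62 (SE 0.41, limma adjusted p = 0.114). It was lowest in mouse 3 at 20 weeks, at 3.37. Without that mouse Nr1d1 had -1.29 (limma adjusted p = 0.0491), the 1 fit of 20 without 1 array in which it passed. Dbp was 10.71 ± 0.34 at 16 weeks and 7.43 ± 1.15 at 20 weeks, after 10.76 ± 0.46 and 10.47 ± 0.30 at 8 and 12 weeks, and its pooled difference of -1.54 (limma adjusted p = 0.275) was 0.092 without the 20-week mice. Between 20 and 16 weeks Dbp differed by -3.27 (adjusted p = 0.00209), one of 5 genes that passed there (0.0275%). Hdac11, Tlcd4, Rnf122 and Flot1 were the others, at -0.84, 0.62, 0.75 and -0.72 (adjusted p = 0.00209, 0.0449, 0.0449 and 0.0449). Usp2, a deubiquitinase with a daily rhythm, followed Dbp without passing (-2.09 between 20 and 16 weeks, adjusted p = 0.0891), and so did Cry2, a clock repressor picked after its values were seen (-0.91, adjusted p = 0.096). The spread of the transferrin receptor's 3' and 5' probe sets was also wider in mice 1, 2 and 4 at 20 weeks (2.01, 1.86 and 1.58, against 1.25 or less on all arrays of 8 to 16 weeks), and its part in these differences was not tested.

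**Figure D5:**
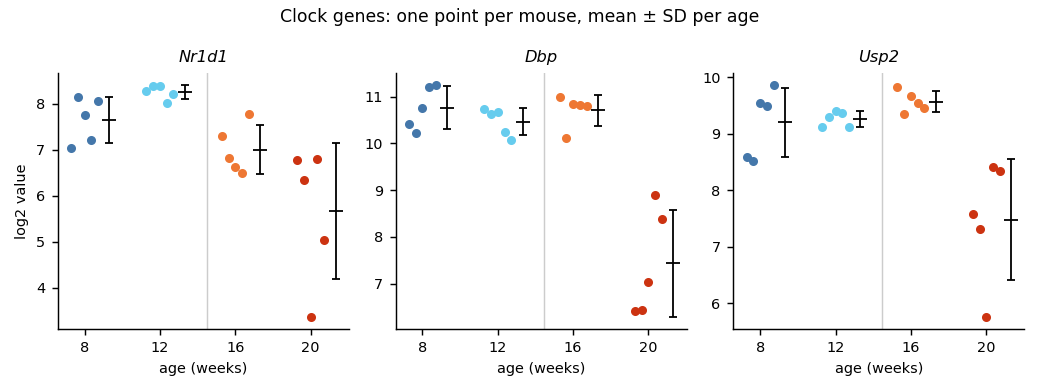
Log2 value of the clock genes Nr1d1, Dbp and Usp2 (y axes) in each mouse at 8, 12, 16 and 20 weeks (x axis; one point per mouse, black bars mean and SD of 5 mice). Dbp and Usp2 at 16 weeks lie with the young ages (10.71 for Dbp) and are lower at 20 weeks (7.43), whereas Nr1d1 is lower at both late ages.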

How the data were processed

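RNA of 1 mouse per array was hybridised to Affymetrix whole-genome mouse arrays, 5 mice at each of 5 ages. The log2 values that the authors deposited had been background-corrected, normalized and summarised per probe set by GCRMA according to the methods, whereas the submitters' processing notes name RMA without a version. Normalization across arrays can hide a shift shared by all genes. Of 45101 probe sets, 34958 had 1 gene symbol, 932 had several and 9211 were not listed, and 34754 of the probe sets matched RefSeq by gene ID. A gene was the mean of its probe sets above 3.266, the median over probe sets, or, failing any, of all, which gave 18194 genes, 11696 of them expressed. The precision is limited by 10 mice per pool, and each p measures the spread between mice.

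Pools were compared with limma 3.58.1 in R 4.3.3 (lmFit and eBayes, two-sided, Benjamini-Hochberg over 18194 genes, called at 0.05). Python 3.11.15 with numpy 2.4.6, pandas 2.3.3 and matplotlib 3.10.9 did the rest. Tested on simulated data for this comparison, the fit on 18194 genes recovered 83 of 100 genes raised by 1.0 and 92 of 100 lowered by 1.5 log2 units, with 8 false among 183 calls. The simulated noise was normal, independent between genes and equal in both pools. In the real data the median SD was 0.403 in late and 0.201 in young mice, and single arrays stood apart. These rates therefore need not hold for the real comparison. Named were all genes that passed, the 8 of smallest p among higher genes, and up to 3 members of each list, by adjusted p or, where none passed, by size of difference. Genes outside this rule are said to be so. The 55 gene lists, the members and the comparison were chosen with earlier results of these data known. Motifs were searched in RefSeq promoters of GRCm38.p6. Alternatives changed the gene summary, the filter, the normalization, weights, covariates, the replicate block and the mice included. Values of the 4-week mice are given as means only.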

Additional observations from a re-analysis of the deposited data

Results flagged for a closer look

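Single mice lay far from the rest of their pool of 10 in 37 of 172 gene and pool combinations examined. A rate of about 1 in 20 would hold by chance only for unselected genes that vary independently. These genes were named by their p or difference, and many flags share 1 mouse, so the rates cannot be compared. Mouse 4 at 8 weeks was the high one among young mice for 14 lymphoid and inflammatory genes: Cxcl9 4.61, Cd3d 4.07, Nkg7 4.17, Cd79b 5.76, Ms4a1 5.53, H2-Ob 5.31, Ighm 5.88, Pou2af1 4.38, Laptm5 7.66, H2-Oa 4.42, Ccl8 6.92, Ccl5 7.30, Cxcl13 4.91 and Glycam1 6.84, as log2 values. Mouse 3 at 20 weeks was the low one among late mice for 15 genes of the epithelium, matrix and metabolism: Col4a2 4.92, Gpam 7.39, Etfdh 4.48, Cpt1a 6.67, Acad11 6.33, Smtn 3.32, Myh11 5.19, Krt19 3.13, Ascl3 3.18, Scnn1a 6.56, Slc12a2 7.58, Jup 4.89, Itpr2 5.48, Gars 7.79 and Klk1b1 14.15. The remaining young values that stood apart were Dennd2d 8.01 and Bmf 6.14 in mouse 3 at 8 weeks, Cfb 3.40 and Lamc1 4.82 in mouse 5 at 8 weeks, and Madcam1 2.65 in mouse 5 at 12 weeks. The remaining late ones were Cfb 6.27 and Mki67 5.36 in mouse 4 and Srebf1 8.52 in mouse 1 at 16 weeks. Within the late pool Dbp differed between 20 and 16 weeks by -3.27 (limma adjusted p = 0.00209).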

How the results depend on the processing

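The count of genes lower (and higher) at the late ages was 12 (0). It was 3 (0) when probe sets were tested singly, 38 (1) over only expressed genes, 5 (1) after quantile normalization, 396 (79) with array weights, 6 (0) with a trended, robust prior, 42 (0) from 4 age means and 52 (1) from all 25 arrays. With the replicate block it was 5 (0). The mouse numbers did not pair the arrays, since deviations of 30 same-number pairs correlated at -0.58 to 0.36 (median -0.064, other numbers 0.011). With covariates it was 8 (4) for the upper quartile and 736 (56) for the Gapdh 3' minus 5' value. Leaving out 1 mouse gave 1 to 153 lower and 0 to 2 higher genes. Alternatives chosen after seeing the data gave 36 (13) without the 2 arrays of lowest correlation, 31 (15) without the 3 late arrays of lowest upper quartile, 2 (0) with the B cell list as covariate, 43 (0) without the 20-week mice, 110 (19) without the 16-week mice, 113 (70) with weights and quantile normalization, and 22 (11) after quantile normalization without mouse 3 at 20 weeks. The causes were not tested. Differences that changed sign were Cd3d (-0.20), Nkg7 (-0.061), H2-Oa (-0.17) and Glycam1 (-0.13) with the B cell covariate, Dbp (0.092) and Usp2 (0.34) without 20 weeks, Myh11 (0.097) and Slc12a2 (0.31) with weights, Myh11 (0.11), Atp2a2 (0.016) and Slc12a2 (0.32) with weights and quantile normalization, and Slc12a2 with the upper quartile covariate (0.023) or without the 3 arrays (0.0047). For the 12 called genes 308 alternative values stayed past the threshold and 160 did not, all with the same sign.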

Other observations

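Ages within a pool differed in few genes past the threshold. Between 12 and 8 weeks Spon2, a matrix protein of the spondin family, was the 1 gene that passed by limma (2.77 ± 0.082 at 8 and 3.37 ± 0.17 at 12 weeks, SD, n = 5, difference 0.59, adjusted p = 0.00729). An unadjusted p under 0.05 was reached by 671 genes there. Between 20 and 16 weeks 1151 genes had an unadjusted p under 0.05. Of the 5 that passed there, Hdac11, a histone deacetylase, went from 8.14 ± 0.19 to 7.30 ± 0.14, and Flot1, a membrane raft protein, from 8.86 ± 0.21 to 8.14 ± 0.24 (SD, n = 5).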
